A study of Mus musculus with 8 samples.

Results

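Bone marrow stromal cultures grown from Id1-/- and Id1+/+ mice that had carried AE9a leukaemia were compared gene by gene. The comparison sets 1 Id1-/- library against 1 Id1+/+ library, of the 8 libraries in the series, and takes every named gene with at least 10 counts over both. That left 15474 genes of the 55421 rows in the table. AE9a (AML1-ETO9a) is a truncated RUNX1-RUNX1T1 fusion that drives acute myeloid leukaemia in mice. One library came from Id1-/- recipients of AE9a cells and the control from Id1+/+ recipients of the same leukaemia, so both carried leukaemia and there was no leukaemia-free library. Marrow stromal cells were harvested 6 weeks after transplantation, grown as adherent cultures in alpha-MEM with serum, and their total RNA was sequenced on a NovaSeq. The labels name neither the animals behind each library nor any pooling, nor the passage of the cultures. A second model, MLL-AF9, has 2 libraries per genotype and is used below where the tests need replicates.

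ID1 is a helix-loop-helix protein without a DNA-binding basic region. It pairs with E proteins such as TCF3 and TCF4 and keeps them, and their tissue-specific partners, from binding E-box DNA. Marrow stromal cells make the ligands, adhesion molecules and matrix of the niche in which blood stem cells live, among them CXCL12, stem cell factor and osteopontin. ANGPTL7, a secreted angiopoietin-like protein, is the protein named in the title of the study.

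Each genotype was deposited as 2 AE9a columns, but they are not independent. In the second Id1-/- column every one of the 14187 genes with at least 10 counts in the first stood exactly 17 counts higher. The first Id1+/+ column stood exactly 134 counts above the second in 17957 genes, out of 17958 that had 2 or more counts. The single exception was Id1 itself. Only the columns without the added constant were used, with 18126803 counts for Id1-/- and 20967896 for Id1+/+. After TMM scaling the effective sizes were 19420278 for Id1-/- and 19571343 for Id1+/+, so raw counts of the columns can be read almost side by side. With 1 library per genotype there is no replicate spread and no p-value for AE9a alone. Ratios therefore carry 95% exact binomial intervals, which cover counting error only and say nothing about variation between mice or cultures.

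The deleted gene was low in the Id1-/- library. Id1 had 83 counts in Id1-/- cells and 383 in Id1+/+ cells, a log2 ratio of -2.19 (95% interval -2.56 to -1.85). The other Id1-/- column held 100 counts, which is 83 plus its constant. The other Id1+/+ column held 317 counts, and 317 less its constant of 134 is 183, exactly 200 below the 383 of the column used. With 183 as the Id1+/+ count the log2 ratio was -1.13 (-1.52 to -0.75). Id1 was lower in Id1-/- cells with either count, and its size depends on which one is taken. Id1 lies on chr2:152736251-152737410 (mm10, plus strand). Reads remained on the gene in the Id1-/- library at 4.27 CPM (counts scaled to the size of the library), and the sources used here do not say which exons the allele lacks.

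Of the genes that act with ID1, those encoding E proteins lay near a ratio of 1, and Id4 stood higher. Tcf3, which encodes the E proteins E12 and E47, had 1102 counts in Id1-/- cells and 990 in Id1+/+ cells, a log2 ratio of 0.17. Tcf4 had 1064 in Id1-/- cells and 915 in Id1+/+ cells (0.23). Tcf12 had 1377 in Id1-/- cells and 1178 in Id1+/+ cells (0.24). The 3 E protein genes thus differed by far less than 2-fold. Id2, the Id gene that took most counts, had 4375 counts in Id1-/- cells and 5311 in Id1+/+ cells, a log2 ratio of -0.27. Id3 had 1576 in Id1-/- cells and 816 in Id1+/+ cells (0.96). Id4 had 115 counts in Id1-/- cells and 21 in Id1+/+ cells, a log2 ratio of 2.46 (1.78 to 3.21). Of the basic helix-loop-helix factors of mesenchyme and blood, 19 of 27 listed reached a mean of 1 CPM and 3 of these were at least 2-fold higher and 0 lower, beside 11.9% and 1.72% of all genes at that level. The median log2 ratio of the 19 was -0.39, and 12 of them lay below 1. Bhlhe41, a repressor of the circadian clock and the lowest of the list, had 1862 counts in Id1-/- cells and 3250 in Id1+/+ cells (-0.79). The 3 higher members were Twist1, Hes1 and Myc. Twist1, a mesenchymal factor, had 131 counts in Id1-/- cells and 42 in Id1+/+ cells, a log2 ratio of 1.65. Hes1, a Notch target, had 151 in Id1-/- cells and 45 in Id1+/+ cells (1.76). Myc, the growth regulator, had 1183 in Id1-/- cells and 393 in Id1+/+ cells (1.60).

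The labelled cell type was checked against marker genes. In both libraries transcripts of macrophages took far more counts than mesenchymal ones. The 28 macrophage markers took 6.36% of all counts in Id1-/- cells and 8.56% in Id1+/+ cells, while the 25 mesenchymal markers took 0.545% in Id1-/- cells and 0.458% in Id1+/+ cells. Lyz2, encoding lysozyme, had 379214 counts in Id1-/- cells and 505877 in Id1+/+ cells, a log2 ratio of -0.40. Gpnmb, a glycoprotein of lipid-loaded macrophages, had 371161 in Id1-/- cells and 715166 in Id1+/+ cells (-0.94). The mesenchymal markers that define marrow stroma were few by comparison. Pdgfra, a PDGF receptor, had 645 counts in Id1-/- cells and 133 in Id1+/+ cells, a log2 ratio of 2.29. Lepr, which marks perivascular stroma, had 31 counts in Id1-/- cells and 4 in Id1+/+ cells. Thy1 had 22 counts in Id1-/- cells and 4 in Id1+/+ cells. Of 16 B lymphocyte and plasma cell markers 4 reached a mean of 1 CPM, and of 15 T and NK cell markers 2 did. Ms4a1, a B cell surface gene, had 0 counts in both libraries. Ebf1, a B cell factor that mesenchymal cells also make, had 239 counts in Id1-/- cells and 65 in Id1+/+ cells, a log2 ratio of 1.89. The T cell gene Cd3e had 0 counts in Id1-/- cells and 1 in Id1+/+ cells. The endothelial marker Cdh5 had 25 counts in Id1-/- cells and 12 in Id1+/+ cells. In bulk RNA, more cells of a type and more RNA per cell cannot be told apart. The shares of counts taken by these marker lists differed between the 2 libraries, and their part in the results below was not tested. Xist had 11891 counts in Id1-/- cells and 10826 in Id1+/+ cells, and Ddx3y, Eif2s3y, Kdm5d and Uty on the Y chromosome had 0 in both.

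Most genes differed little between the libraries, and those past 2-fold were mainly higher in Id1-/- cells. Among the 12703 genes that averaged 1 CPM or more, 1507 (11.9%) were at least 2-fold higher in Id1-/- cells and 218 (1.72%) at least 2-fold lower. The other 10978 stayed within 2-fold. The whole counting interval lay past 2-fold for 994 of the higher and 56 of the lower genes. The median log2 ratio over the 12703 genes was -0.0089. The higher genes included many of the matrix, contractile, mitotic and erythroid lists, and the abundant lysosomal and macrophage genes stood modestly below 1, as described in turn.

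**Figure D1:**
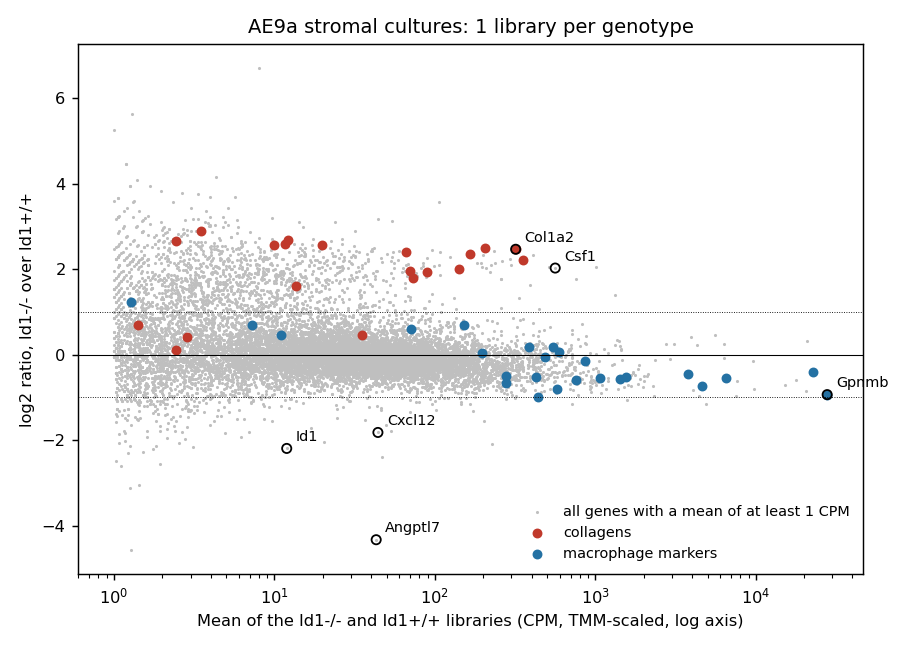
Log2 ratio of Id1-/- over Id1+/+ (y axis) against the mean of both AE9a libraries in CPM (x axis, log scale); each point is a gene and dotted lines mark 2-fold. Collagens (red) lie at or above 0, macrophage markers (blue) mostly between -1 and 0, and Angptl7, at -4.33, lies lowest of the genes circled.

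Angptl7 had the lowest ratio of any gene averaging 10 CPM or more. It had 79 counts in Id1-/- cells and 1605 in Id1+/+ cells, or 4.07 and 82.0 CPM. The log2 ratio was -4.33 (-4.68 to -4.01), so the level in Id1+/+ cells was 20.2-fold higher (16.1 to 25.6). Angptl7 lies on chr4:148495183-148500460 (mm10, minus strand). Its relatives did not share that ratio. Angptl2 had 1311 counts in Id1-/- cells and 2135 in Id1+/+ cells, a log2 ratio of -0.69. Angptl4, which inhibits lipoprotein lipase, had 420 in Id1-/- cells and 231 in Id1+/+ cells (0.87). Pirb, which encodes a mouse receptor for angiopoietin-like proteins, had 4841 in Id1-/- cells and 7041 in Id1+/+ cells (-0.53).

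Cxcl12, the chemokine that retains blood stem cells in marrow, was the niche ligand with the lowest ratio. It had 378 counts in Id1-/- cells and 1346 in Id1+/+ cells, a log2 ratio of -1.82 (-1.99 to -1.65). Spp1, encoding osteopontin, had 30409 counts in Id1-/- cells and 60371 in Id1+/+ cells, a log2 ratio of -0.98. Mdk, the growth factor midkine, had 21 in Id1-/- cells and 64 in Id1+/+ cells (-1.60). Of 20 listed niche factors, 16 reached 1 CPM, with a median of 0.056. Of the 16, 7 were at least 2-fold higher and 2 at least 2-fold lower, beside 11.9% and 1.72% of all genes. Niche ligands thus went both ways, in contrast to the matrix genes below.

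The niche factors that stood higher included ligands for macrophages and progenitors. Csf1, the main growth factor of macrophages, had 17526 counts in Id1-/- cells and 4327 in Id1+/+ cells, a log2 ratio of 2.03 (1.98 to 2.08). Kitl, encoding stem cell factor, had 263 counts in Id1-/- cells and 113 in Id1+/+ cells, a log2 ratio of 1.23. Vcam1, an adhesion molecule of the niche, had 310 in Id1-/- cells and 85 in Id1+/+ cells (1.88). Lif, an IL-6 family cytokine, had 681 in Id1-/- cells and 211 in Id1+/+ cells (1.70). Igf1 and Tgfb1 lay nearer to 1. Igf1 had 6525 counts in Id1-/- cells and 6170 in Id1+/+ cells, a log2 ratio of 0.09. Tgfb1 had 5434 in Id1-/- cells and 7157 in Id1+/+ cells (-0.39).

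Since E proteins bind E-boxes, the promoters of Angptl7, of Cxcl12, the niche factor with the lowest ratio, and of Csf1, the niche factor with the highest, are shown. Each line gives the 250 bases before the start of the gene (RefSeq, GRCm38.p6, 5′ to 3′ on the gene's strand), with every CANNTG in capitals, a motif that reads the same on both strands. The regions are chr4:148500463-148500712 (minus) for Angptl7, chr6:117168285-117168534 (plus) for Cxcl12 and chr3:107760470-107760719 (minus) for Csf1.
Angptl7: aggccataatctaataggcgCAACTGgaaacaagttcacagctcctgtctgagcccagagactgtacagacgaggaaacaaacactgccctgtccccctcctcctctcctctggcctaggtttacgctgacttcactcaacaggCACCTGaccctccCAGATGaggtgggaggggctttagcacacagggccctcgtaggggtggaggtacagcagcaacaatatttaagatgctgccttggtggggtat
Cxcl12: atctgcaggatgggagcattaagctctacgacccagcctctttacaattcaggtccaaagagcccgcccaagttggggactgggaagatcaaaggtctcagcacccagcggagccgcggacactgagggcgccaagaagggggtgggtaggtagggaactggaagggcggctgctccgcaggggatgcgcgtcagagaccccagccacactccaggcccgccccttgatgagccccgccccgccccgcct
Csf1: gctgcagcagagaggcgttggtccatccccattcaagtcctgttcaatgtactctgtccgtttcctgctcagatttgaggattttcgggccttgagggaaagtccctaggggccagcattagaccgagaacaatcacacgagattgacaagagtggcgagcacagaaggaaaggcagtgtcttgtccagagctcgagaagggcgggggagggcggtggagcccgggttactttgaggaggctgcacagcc
The Angptl7 window held 3 matches, and the Cxcl12 and Csf1 windows held 0. Of 32851 promoter windows of that length, 66.2% held at least 1 match, with a median of 1. A match is a description of the letters only.

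**Figure D2:**
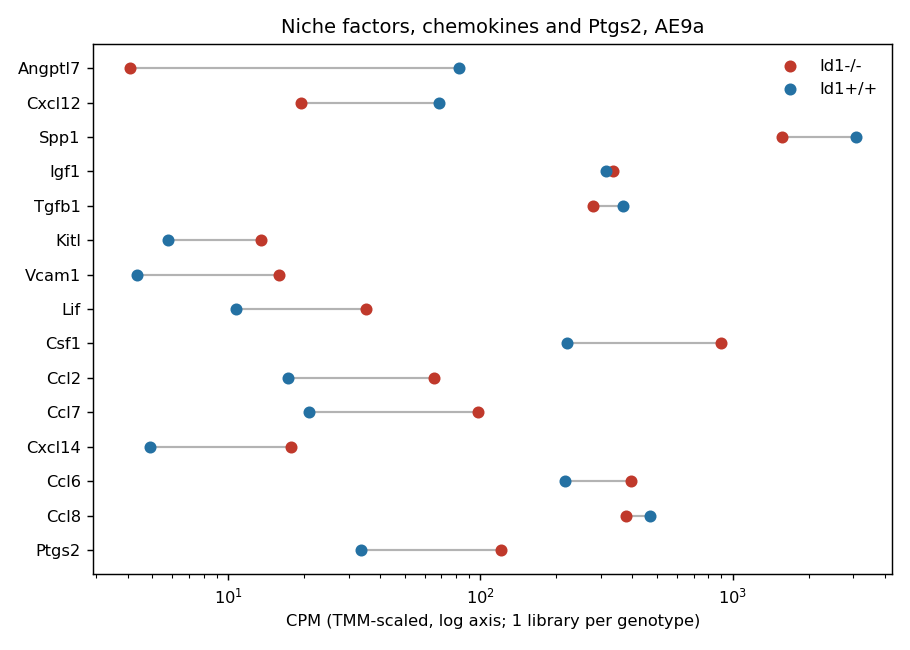
CPM in the AE9a Id1-/- library (red) and Id1+/+ library (blue) for Angptl7, niche factors, chemokines and Ptgs2 (x axis, log scale; 1 library per genotype, grey lines join the pair). Angptl7, Cxcl12 and Spp1 lie lower in Id1-/- cells, while Csf1, at 902 CPM in Id1-/- cells and 221 CPM in Id1+/+ cells, Ccl2, Ccl7, Cxcl14 and Ptgs2 lie higher.

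Most fibrillar and basement membrane collagens were at least 2-fold higher. Of 22 listed collagens 20 reached 1 CPM, of which 16 were at least 2-fold higher and 0 lower, with a median log2 ratio of 2.29 against -0.0089 over all genes. Col1a1, a chain of type I collagen, had 6777 counts in Id1-/- cells and 1217 in Id1+/+ cells, a log2 ratio of 2.49 (2.40 to 2.58). Col1a2, its partner chain, had 10477 counts in Id1-/- cells and 1907 in Id1+/+ cells, a log2 ratio of 2.47 (2.40 to 2.54). Col5a2, a type V chain and the collagen that took most counts, had 11392 in Id1-/- cells and 2466 in Id1+/+ cells (2.22). All 3 lay past 4-fold. Col3a1, of reticular fibres, had 411 counts in Id1-/- cells and 64 in Id1+/+ cells, a log2 ratio of 2.69. Col4a1, a basement membrane chain, had 4399 in Id1-/- cells and 1101 in Id1+/+ cells (2.01). Col7a1, of anchoring fibrils and the lowest of the group, had 49 in Id1-/- cells and 46 in Id1+/+ cells (0.10). Collagens together took 0.282% of counts in Id1-/- cells and 0.0536% in Id1+/+ cells.

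The genes that process collagen were higher in part. Of 21 processing genes, 13 were at least 2-fold higher. Lox, which cross-links collagen and elastin, had 9358 counts in Id1-/- cells and 2004 in Id1+/+ cells, a log2 ratio of 2.23. Serpinh1, the collagen chaperone HSP47, had 5771 in Id1-/- cells and 1304 in Id1+/+ cells (2.16). Plod2, which hydroxylates telopeptide lysines, had 1473 in Id1-/- cells and 308 in Id1+/+ cells (2.27). Others of the list lay near 1. P4hb, protein disulfide isomerase, had 11493 counts in Id1-/- cells and 11805 in Id1+/+ cells, a log2 ratio of -0.03. Plod1 had 2490 in Id1-/- cells and 2760 in Id1+/+ cells (-0.14).

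Of 29 matrix glycoproteins and proteoglycans past 1 CPM, 26 were at least 2-fold higher, with a median of 2.11. Fn1, encoding fibronectin, had 37111 counts in Id1-/- cells and 14257 in Id1+/+ cells, a log2 ratio of 1.39. Bgn, the small proteoglycan biglycan, had 13293 counts in Id1-/- cells and 2640 in Id1+/+ cells, a log2 ratio of 2.34 (2.28 to 2.40). Vcan, a large hyaluronan-binding proteoglycan, had 1089 in Id1-/- cells and 148 in Id1+/+ cells (2.89). Fibronectin thus took the most counts of the group and had a smaller ratio than the proteoglycans. Dcn, the collagen-binding decorin, had 171 counts in Id1-/- cells and 20 in Id1+/+ cells, a log2 ratio of 3.11 (2.44 to 3.85). Emilin1, of elastic fibres and the only one of the 29 below 1, had 1358 in Id1-/- cells and 1568 in Id1+/+ cells (-0.20). The group as a whole took 0.761% of counts in Id1-/- cells and 0.194% in Id1+/+ cells.

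Matrix proteases and their inhibitors differed among themselves. In all, 13 of 20 genes of the list were at least 2-fold higher and 0 lower. Mmp12, the macrophage elastase, had 116545 counts in Id1-/- cells and 179195 in Id1+/+ cells, a log2 ratio of -0.61. Ctsk, a collagenolytic cathepsin of osteoclasts, had 1328 in Id1-/- cells and 1941 in Id1+/+ cells (-0.54). These stood below 1, while a gelatinase of fibroblasts and an inhibitor stood above. Mmp2, that gelatinase, had 1376 counts in Id1-/- cells and 246 in Id1+/+ cells, a log2 ratio of 2.50. Timp1, a metalloproteinase inhibitor, had 3126 in Id1-/- cells and 576 in Id1+/+ cells (2.45).

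Markers of several mesenchymal lineages were higher, and adipocyte markers were mostly not. All 12 smooth muscle and pericyte genes past 1 CPM were at least 2-fold higher, of 15 listed, with a median of 1.88. Acta2, the smooth muscle actin, had 7734 counts in Id1-/- cells and 2285 in Id1+/+ cells, a log2 ratio of 1.77 (1.70 to 1.84). Cald1, an actin-binding regulator, had 7078 in Id1-/- cells and 1666 in Id1+/+ cells (2.10). Cspg4, the NG2 proteoglycan of pericytes, had 332 in Id1-/- cells and 68 in Id1+/+ cells (2.30). Of 18 mesenchymal markers past 1 CPM, 9 were at least 2-fold higher and 1, Cxcl12, lower. Prrx1, a factor of limb mesenchyme, had 1343 counts in Id1-/- cells and 242 in Id1+/+ cells, a log2 ratio of 2.48 (2.29 to 2.69). Pdgfrb, a PDGF receptor, had 1221 in Id1-/- cells and 267 in Id1+/+ cells (2.20). Vim, encoding vimentin, which macrophages also make, had 54535 in Id1-/- cells and 58922 in Id1+/+ cells (-0.10). Cxcl12 thus stood apart from the other mesenchymal genes.

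Of 9 osteoblast genes past 1 CPM, 7 were at least 2-fold higher. Sparc, encoding osteonectin, had 9376 counts in Id1-/- cells and 2194 in Id1+/+ cells, a log2 ratio of 2.11. Tnfrsf11b, encoding osteoprotegerin, had 384 in Id1-/- cells and 151 in Id1+/+ cells (1.36). Runx2, the osteoblast master factor, had 468 in Id1-/- cells and 425 in Id1+/+ cells (0.15). Mature osteoblast transcripts were scarce, and Bglap, encoding osteocalcin, had 1 count in Id1-/- cells and 0 in Id1+/+ cells. Of 9 adipocyte genes, 1 was at least 2-fold higher, beside 11.9% of all genes. Scd1, the desaturase that passed 2-fold, had 537 counts in Id1-/- cells and 138 in Id1+/+ cells, a log2 ratio of 1.97. Cd36, a fatty acid receptor that macrophages share, had 10370 in Id1-/- cells and 20005 in Id1+/+ cells (-0.94).

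Genes of TGF-beta and BMP signalling were mostly higher. Among the 26 TGF-beta and BMP genes past 1 CPM, 16 were at least 2-fold higher and 0 lower. Grem1, a secreted BMP antagonist, had 3501 counts in Id1-/- cells and 662 in Id1+/+ cells, a log2 ratio of 2.41 (2.29 to 2.54). Inhba, an activin subunit, had 2549 in Id1-/- cells and 633 in Id1+/+ cells (2.02). Ltbp1, which stores latent TGF-beta in matrix, had 1331 in Id1-/- cells and 249 in Id1+/+ cells (2.43). The ligand Tgfb1, given above, had the lowest ratio of the list, and both main TGF-beta receptors lay near 1. Tgfbr1 had 3596 counts in Id1-/- cells and 4181 in Id1+/+ cells, a log2 ratio of -0.21. Tgfbr2 had 3360 in Id1-/- cells and 3220 in Id1+/+ cells (0.07).

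In the Wnt list 14 of 20 genes were at least 2-fold higher. Wnt5a, a ligand, had 324 counts in Id1-/- cells and 50 in Id1+/+ cells, a log2 ratio of 2.71 (2.27 to 3.17). Sfrp1, a secreted antagonist, had 178 in Id1-/- cells and 22 in Id1+/+ cells (3.03). Sfrp4, another secreted antagonist, had 203 in Id1-/- cells and 23 in Id1+/+ cells (3.15). Ligand and antagonists thus stood high together. Lrp6, a Wnt co-receptor, had 2408 counts in Id1-/- cells and 2463 in Id1+/+ cells, a log2 ratio of -0.02. Among growth factors and receptors 12 of 23 were at least 2-fold higher. Fgf7, a fibroblast growth factor made by mesenchyme, had 670 in Id1-/- cells and 147 in Id1+/+ cells (2.20). Egfr, the EGF receptor, had 459 in Id1-/- cells and 104 in Id1+/+ cells (2.15). Igfbp7, an IGF-binding protein, had 3100 in Id1-/- cells and 743 in Id1+/+ cells (2.07).

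**Figure D3:**
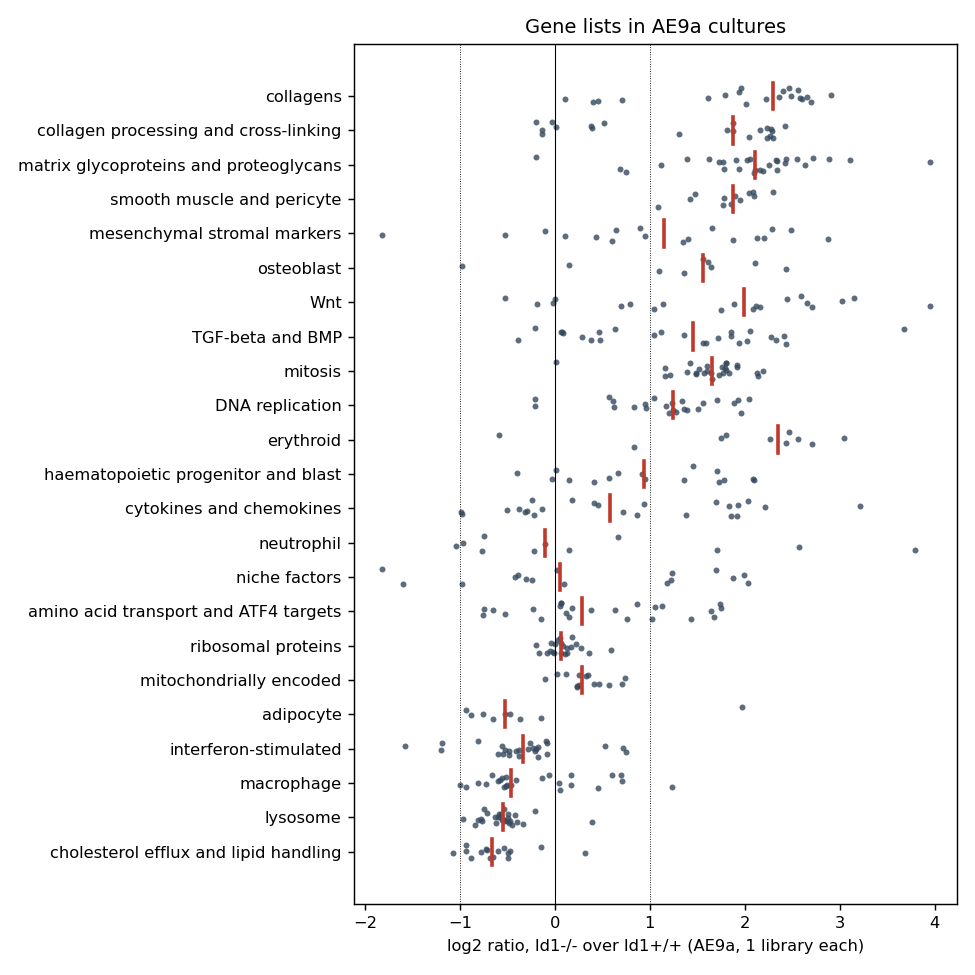
Log2 ratio of Id1-/- over Id1+/+ in AE9a for listed genes averaging 1 CPM or more (points, 1 library per genotype); red bars are list medians and dotted lines mark 2-fold. Collagen and matrix lists have medians near 2, mitosis lies at 1.66, and lysosome and macrophage lists lie between -1 and 0.

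Macrophage and lysosome genes were lower in Id1-/- cells as a broad shift of less than 2-fold. Of 25 macrophage markers past 1 CPM, 1 was at least 2-fold higher and 0 at least 2-fold lower, with a median of -0.46. With library totals in place of TMM the median was -0.26, so the size of the shift depends on the scaling. Gpnmb had a log2 ratio of -0.94. Fcer1g, an Fc receptor chain, had 5719 counts in Id1-/- cells and 11488 in Id1+/+ cells, just within 2-fold. Ctss, a cathepsin, had 102511 in Id1-/- cells and 151306 in Id1+/+ cells (-0.55). Other markers lay near or above 1. Csf1r, the receptor for CSF1, had 15828 counts in Id1-/- cells and 17567 in Id1+/+ cells, a log2 ratio of -0.14. C1qa, a complement chain of macrophages, had 3644 in Id1-/- cells and 2255 in Id1+/+ cells (0.70).

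Of 28 lysosome genes none reached 2-fold, and the median was -0.55, or -0.35 with library totals. Psap, the saposin precursor, had 287177 counts in Id1-/- cells and 518426 in Id1+/+ cells, a log2 ratio of -0.84. Ctsl, a cathepsin, had 98743 in Id1-/- cells and 194258 in Id1+/+ cells (-0.96). Ctsd, another cathepsin, had 138785 in Id1-/- cells and 244038 in Id1+/+ cells (-0.80). The median of the 16 genes of cholesterol efflux and lipid handling was -0.67, and 1 of these passed 2-fold. Fabp5, the fatty acid carrier that did, had 19798 counts in Id1-/- cells and 41836 in Id1+/+ cells, a log2 ratio of -1.07. With library totals it was -0.87, and none of the list passed 2-fold. Apoe, a lipid carrier, had 175861 in Id1-/- cells and 195946 in Id1+/+ cells (-0.14).

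Genes of other blood lineages mostly had few counts, and erythroid genes were higher. Of 10 erythroid genes past 1 CPM, 8 were at least 2-fold higher, with a median of 2.35. Klf1, a master factor of red cell genes, had 269 counts in Id1-/- cells and 49 in Id1+/+ cells, a log2 ratio of 2.47 (2.02 to 2.94). Gata1, a factor of red cells and megakaryocytes, had 557 in Id1-/- cells and 131 in Id1+/+ cells (2.10). Gata1 was counted in the progenitor and blast list below, not in the erythroid list. Epor, the erythropoietin receptor, had 124 in Id1-/- cells and 26 in Id1+/+ cells (2.27). Counts of the globin genes may be split between near-identical copies. Hbb-bs, an adult beta globin, had 961 counts in Id1-/- cells and 179 in Id1+/+ cells, a log2 ratio of 2.44. Tfrc, the transferrin receptor, which other cells also make, had 14920 in Id1-/- cells and 22550 in Id1+/+ cells (-0.58).

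Of 16 progenitor and blast genes 7 were at least 2-fold higher and 0 lower, beside 11.9% and 1.72% of all genes. Sox4, a factor of progenitors, had 668 counts in Id1-/- cells and 158 in Id1+/+ cells, a log2 ratio of 2.09 (1.84 to 2.35). Hoxa10, a homeobox gene of progenitors, had 115 in Id1-/- cells and 35 in Id1+/+ cells (1.73). The neutrophil list had 3 of 11 higher and 1 lower, and 0 lower with library totals. Over all genes the shares were 11.9% higher and 1.72% lower. S100a9, a granulocyte calcium-binding protein, had 96 counts in Id1-/- cells and 7 in Id1+/+ cells, a log2 ratio of 3.79 (2.69 to 5.14). Chil3, which macrophages also make, had 58179 in Id1-/- cells and 114595 in Id1+/+ cells (-0.97). The granulocyte ratios rest on few counts, as the interval of S100a9 shows.

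Cell-cycle genes were higher. Of 27 mitosis genes, 26 were at least 2-fold higher, with a median of 1.66. Mki67, a proliferation antigen, had 2348 counts in Id1-/- cells and 626 in Id1+/+ cells, a log2 ratio of 1.92 (1.79 to 2.05). Top2a, a topoisomerase of dividing cells, had 2145 in Id1-/- cells and 492 in Id1+/+ cells (2.13). Hmmr, a hyaluronan receptor of the spindle, had 471 in Id1-/- cells and 104 in Id1+/+ cells (2.19). Cenpa, the centromere histone and the exception, had 653 in Id1-/- cells and 650 in Id1+/+ cells (0.02). Of 24 DNA replication genes 16 were at least 2-fold higher. Rrm2, which makes deoxynucleotides, had 1924 counts in Id1-/- cells and 509 in Id1+/+ cells, a log2 ratio of 1.93. Pcna, the sliding clamp, had 5112 in Id1-/- cells and 5956 in Id1+/+ cells (-0.21). Of 21 cycle inhibitors and p53 targets, 3 were at least 2-fold higher and 0 lower, beside 11.9% and 1.72% of all genes. The median of that list was 0.26. Cdkn2a, which encodes p16 and ARF, had 380 counts in Id1-/- cells and 153 in Id1+/+ cells, a log2 ratio of 1.32. Cdkn1a, encoding p21, had 3309 in Id1-/- cells and 2563 in Id1+/+ cells (0.38). Eda2r, a p53 target, had 235 in Id1-/- cells and 46 in Id1+/+ cells (2.36).

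Several chemokines and 2 prostaglandin genes were higher, and interferon-stimulated genes were not. Of 24 cytokines and chemokines past 1 CPM, 9 were at least 2-fold higher and 0 lower, beside 11.9% and 1.72% of all genes. Ccl2, which attracts monocytes, had 1270 counts in Id1-/- cells and 338 in Id1+/+ cells, a log2 ratio of 1.92 (1.75 to 2.10). Ccl7, its neighbour on chromosome 11, had 1893 counts in Id1-/- cells and 410 in Id1+/+ cells, a log2 ratio of 2.22 (2.06 to 2.38). Cxcl14, a chemokine of epithelium and stroma, had 345 in Id1-/- cells and 96 in Id1+/+ cells (1.86). Genes of prostaglandin E synthesis stood at similar ratios. Ptgs2, the inducible cyclo-oxygenase, had 2338 counts in Id1-/- cells and 655 in Id1+/+ cells, a log2 ratio of 1.85 (1.72 to 1.97). Ptges, which acts after it, had 428 in Id1-/- cells and 137 in Id1+/+ cells (1.66). Of 18 NF-kB and prostaglandin genes in all, 3 were at least 2-fold higher and 1 lower, beside 11.9% and 1.72% of all genes. Nfkb1 had 1817 counts in Id1-/- cells and 2035 in Id1+/+ cells, a log2 ratio of -0.15. Tnfaip3, an inhibitor of the pathway, had 1369 in Id1-/- cells and 1477 in Id1+/+ cells (-0.10). Saa3, an acute phase protein, had 530 in Id1-/- cells and 1276 in Id1+/+ cells (-1.26).

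Of 26 interferon-stimulated genes, 0 were at least 2-fold higher and 3 at least 2-fold lower, with a median of -0.33. Scaled by library totals in place of TMM, none was at least 2-fold lower. Usp18, an ISG15 protease, had 39 counts in Id1-/- cells and 90 in Id1+/+ cells, a log2 ratio of -1.20. None of the 25 antigen presentation genes reached 2-fold. H2-D1, a class I chain, had 56810 in Id1-/- cells and 101247 in Id1+/+ cells (-0.82).

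Most metabolic and housekeeping lists differed less. The 22 ribosomal protein genes had 0 members past 2-fold and a median of 0.064. The 14 mitochondrially encoded genes also had 0 past 2-fold, with a median of 0.29, and took 5.45% of counts in Id1-/- cells and 3.80% in Id1+/+ cells. The gene mt-Co1 took 447759 counts in Id1-/- cells, the most of any gene there, and 360394 in Id1+/+ cells, where Gpnmb took the most. The list of amino acid transport and ATF4 targets did not share this. Of its 24 genes, 8 were at least 2-fold higher, beside 11.9% of all genes, with a list median of 0.28. Phgdh, the first enzyme of serine synthesis, had 1417 counts in Id1-/- cells and 426 in Id1+/+ cells, a log2 ratio of 1.75. Slc7a5, a leucine carrier, had 1133 in Id1-/- cells and 342 in Id1+/+ cells (1.74). Atf4, the stress factor itself, had 4057 in Id1-/- cells and 4785 in Id1+/+ cells (-0.23). Of 25 glycolysis and hypoxia genes, 1 was past 2-fold. Adm, that gene, encoding adrenomedullin, had 659 counts in Id1-/- cells and 112 in Id1+/+ cells, a log2 ratio of 2.57. Of 27 cholesterol and fatty acid synthesis genes 3 were at least 2-fold higher, beside 11.9% of all genes, with a list median of -0.03. The 3 were the desaturases and elongase Scd1, Fads2 and Elovl6.

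Among named genes averaging 10 CPM or more, the 15 with the highest ratios lay between 2.58 and 3.17. Car2, a carbonic anhydrase of red cells and osteoclasts, had 1555 counts in Id1-/- cells and 174 in Id1+/+ cells, a log2 ratio of 3.17 (2.94 to 3.40). Cemip, which degrades hyaluronan, had 1884 counts in Id1-/- cells and 218 in Id1+/+ cells, a log2 ratio of 3.12 (2.92 to 3.33). Genes of the red cell followed. Ermap, an erythroid membrane protein, had 836 counts in Id1-/- cells and 97 in Id1+/+ cells, a log2 ratio of 3.12. Aqp1, the water channel of red cells, had 518 in Id1-/- cells and 66 in Id1+/+ cells (2.98). Sptb, erythroid beta spectrin, had 646 in Id1-/- cells and 106 in Id1+/+ cells (2.62). Genes of matrix turnover and Wnt signalling were also among the 15. Mrc2, a collagen-uptake receptor, had 892 counts in Id1-/- cells and 138 in Id1+/+ cells, a log2 ratio of 2.70. Lgr6, an R-spondin receptor, had 755 in Id1-/- cells and 120 in Id1+/+ cells (2.67). Mmp9, a gelatinase, had 371 in Id1-/- cells and 62 in Id1+/+ cells (2.59).

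At the other end, after Angptl7 and Id1, the 15 lowest ratios reached -1.26. The place of Id1 rests on its deposited 383 counts in Id1+/+ cells. With the implied 183 its log2 ratio was -1.13, outside that range. Myo18b, an unconventional myosin, had 154 counts in Id1-/- cells and 642 in Id1+/+ cells, a log2 ratio of -2.05 (-2.31 to -1.79). Ero1lb, an oxidase of the endoplasmic reticulum, had 466 counts in Id1-/- cells and 1626 in Id1+/+ cells, a log2 ratio of -1.79 (-1.94 to -1.64). Mcoln3, an endolysosomal channel, had 466 in Id1-/- cells and 1469 in Id1+/+ cells (-1.65). None of these 3 genes belonged to a list used here. Dio2, the deiodinase that activates thyroid hormone, had 1988 counts in Id1-/- cells and 5922 in Id1+/+ cells, a log2 ratio of -1.56 (-1.64 to -1.49). Naip5, the flagellin sensor of the inflammasome, had 365 in Id1-/- cells and 1061 in Id1+/+ cells (-1.53). Procr, the protein C receptor, had 517 in Id1-/- cells and 1285 in Id1+/+ cells (-1.30). Tle2, a corepressor, had 140 in Id1-/- cells and 338 in Id1+/+ cells (-1.26).

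A few genes were counted in only 1 of the libraries. Of genes with 0 counts in Id1+/+ cells, 5 had at least 30 in Id1-/- cells, and none had the opposite pattern. Ifi202b, an interferon-inducible gene whose expression is known to vary between inbred mouse strains, had 312 counts in Id1-/- cells and 0 in Id1+/+ cells. With the 0 taken as 3 counts, the ratio was 105-fold, which is no lower bound. In MLL-AF9 Ifi202b had 3.61 and 3.17 CPM in the Id1-/- libraries and 0.0490 and 0 CPM in the Id1+/+ libraries. The other 4 (Reln, Gm42031, Sparcl1 and Cap2, named because the count is small) had 31 to 38 counts in Id1-/- cells. Of genes on chromosome 2 next to Id1, 2 of 11 past 1 CPM were at least 2-fold higher, beside 11.9% of all genes. Tpx2, a mitotic gene, had 923 counts in Id1-/- cells and 268 in Id1+/+ cells, a log2 ratio of 1.79. Foxs1, a forkhead factor of pericytes, had 178 in Id1-/- cells and 32 in Id1+/+ cells (2.49). Bcl2l1, encoding BCL-XL, had 1753 in Id1-/- cells and 1698 in Id1+/+ cells (0.06). The strain background of the mice and its part in these values were not tested.

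The AE9a ratios were set beside MLL-AF9, where 2 Id1-/- and 2 Id1+/+ libraries allow a test. One edgeR fit (quasi-likelihood F test, Benjamini-Hochberg adjustment at 0.05) held all 6 libraries. It called 2395 of 15086 genes higher (15.9%) and 1484 lower (9.84%) in MLL-AF9 Id1-/- cells. With library totals in place of TMM the calls were 3070 higher and 537 lower, so small falls in MLL-AF9 depend on the scaling. Of 6 sex-linked genes listed, 4 were tested in the fit. All 4 were higher in MLL-AF9 Id1-/- cells, with a median log2 fold change of 7.19. The MLL-AF9 genotypes thus differed in sex-linked transcripts. In the AE9a pair Xist had a log2 ratio of 0.15 and the Y genes named above had no counts. The part of the MLL-AF9 sex-linked difference in the MLL-AF9 values and in the differences between models was not tested. Across the 12481 genes at 1 CPM in AE9a that were in the fit, 1431 were at least 2-fold higher in AE9a Id1-/- cells. Of these, 925 rose in MLL-AF9, which is 64.6% of the AE9a genes and 44.5% of the MLL-AF9 genes. Of the 203 at least 2-fold lower in AE9a, 32 fell in MLL-AF9, or 15.8% of the AE9a genes and 2.21% of the MLL-AF9 genes. Across genes, which are not independent replicates, Pearson's r of the log2 values was 0.568 and Spearman's rho 0.453, given as a description.

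Matrix genes were higher in both models. All 20 collagens tested rose in MLL-AF9, with a median log2 fold change of 1.81. Col1a2 had a log2 fold change of 2.47 (SE 0.09) in MLL-AF9, where its levels were 1734 and 1848 CPM in Id1-/- cells and 310 and 338 CPM in Id1+/+ cells. In the same fit 30 of 32 matrix glycoproteins and 25 of 27 mitosis genes rose in MLL-AF9, while 26 of 28 lysosome genes fell. The median log2 fold change of the lysosome genes there was only -0.33. Of 26 macrophage markers tested there, 15 fell and 4 rose. The lysosome and macrophage counts used TMM scaling and were not repeated with library totals. Angptl7 fell in MLL-AF9 too, to 34.4 and 33.9 CPM in Id1-/- cells, against 67.5 and 75.3 CPM in Id1+/+ cells (log2 -1.07, SE 0.09, edgeR adjusted p = 8.63e-07). Cxcl12 fell to 32.01 and 32.36 CPM in MLL-AF9 Id1-/- cells, against 84.98 and 72.38 CPM in Id1+/+ cells (log2 -1.29, SE 0.10, edgeR adjusted p = 2.22e-07).

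The models differed for chemokines and for other lists. The interaction of model and genotype tests whether the Id1-/- effect differs between them, with the spread taken from the MLL-AF9 libraries and each lone AE9a library assumed to vary like those. It called 559 genes higher in AE9a (3.71% of 15086) and 991 lower (6.57%). That split turned with scaling: with library totals in place of TMM it was 863 higher and 279 lower, so the direction of small differences cannot be read. Ccl2 fell in MLL-AF9, to 62.9 and 66.2 CPM in Id1-/- cells, against 198.9 and 176.5 CPM in Id1+/+ cells. Its effect in AE9a was higher by 3.36 log2 units (SE 0.17, edgeR interaction adjusted p = 3.83e-08). Ccl7 also fell in MLL-AF9 (log2 -1.04), and its difference between models was 3.16 (SE 0.22, edgeR adjusted p = 9.58e-07). Of 23 cytokines and chemokines tested, 13 had a higher effect in AE9a and 0 a lower one, while 11 fell and 5 rose in MLL-AF9. Of 25 DNA replication genes tested, 13 had a higher and 0 a lower effect in AE9a. Of 32 matrix glycoproteins and proteoglycans, 13 had a higher and 2 a lower effect. Of 16 genes of cholesterol efflux and lipid handling, 0 had a higher and 11 a lower effect. The list counts here and below used TMM scaling and were not repeated with library totals. Where they rest on small differences, their direction cannot be read either.

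Angptl7 differed in the opposite direction to Ccl2 and Ccl7. Its Id1-/- effect was lower in AE9a than in MLL-AF9 by 3.36 log2 units (interaction -3.36, SE 0.20, edgeR adjusted p = 9.90e-08). Csf1 rose in MLL-AF9 as well (log2 0.69), and its effect was higher in AE9a by 1.24 (SE 0.14, edgeR adjusted p = 7.03e-05). Of 15 neutrophil genes tested, 10 fell and 0 rose in MLL-AF9, and 5 had a higher and 1 a lower effect in AE9a. S100a9 had 39.9 and 34.4 CPM in MLL-AF9 Id1-/- cells and 90.8 and 71.4 CPM in Id1+/+ cells, and its difference between models was 4.80 (SE 0.46, edgeR adjusted p = 2.25e-05), on 7 counts in AE9a Id1+/+ cells. Of 19 progenitor and blast genes tested, 9 had a higher effect in AE9a and 0 a lower one. Mfge8, which bridges phagocytes to dying cells, had 58846 counts in AE9a Id1-/- cells and 130960 in AE9a Id1+/+ cells. In MLL-AF9 it had 360 and 377 CPM in Id1-/- cells and 341 and 313 CPM in Id1+/+ cells, and the difference of effect was -1.41 (SE 0.14, edgeR adjusted p = 2.24e-05).

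**Figure D4:**
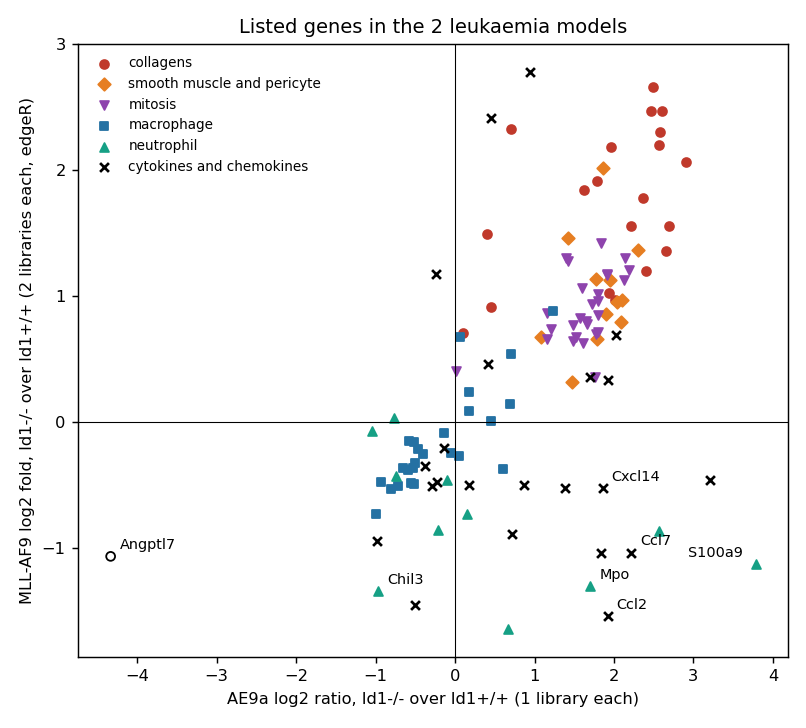
Log2 fold of Id1-/- over Id1+/+ in AE9a (x axis, 1 library per genotype) and MLL-AF9 (y axis, edgeR, 2 libraries per genotype) for members of selected gene lists and Angptl7; each marker is a gene. Collagens (red) are at or above 0 on both axes, while Ccl2, Ccl7, Cxcl14, S100a9 and Mpo are above 0 in AE9a and below 0 in MLL-AF9.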

How the data were processed

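Gene counts were deposited by the authors without normalization, per the file headers, in 1 table per leukaemia model. Per the submitters' processing notes, mm10 was the genome and the tools were DESeq2 1.32.0, featureCounts 2.0.1, fastp 0.22.0 and HISAT2 2.2.1, listed with no order. The strand setting and annotation release are not given in the sources used here, so overlapping or antisense genes may share counts. The other deposited column of each AE9a genotype holds no counts of a separate library and served only in 1 alternative.

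The AE9a column pair was scaled by TMM (edgeR 4.0.16, R 4.3.3). Genes with at least 10 counts over both were kept, and 20 such rows named as dates were left out. The log2 ratio had no prior count, and a 0 was taken as 3 counts. Counts of higher and lower genes took those averaging 1 CPM or more whose ratio reached 2-fold. Interval and fit were run on simulated data, with Poisson counts for the interval and the fit's own spread for the fit. These runs cannot show whether the lone AE9a libraries vary like the MLL-AF9 libraries. The joint fit used the 15086 shared genes that passed filterByExpr, and folds carry edgeR's default prior count. Where nothing says that MLL-AF9 libraries came from separate mice, their p-values measure only the spread between these samples.

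The comparison and the gene lists were chosen with earlier results of these data known. Genes were named by rule: Id1 and Angptl7, the genes with most counts, the 15 highest and lowest ratios at 10 CPM or more, the largest ratios and the most abundant member of each list, and the 8 smallest interaction p-values per direction. Other members illustrate a list's range or roles. A few list members are not reported here by name. Positions come from GENCODE on mm10 and promoters from RefSeq.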

Additional observations from a re-analysis of the deposited data

Results flagged for a closer look

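The following genes had an Id1-/- effect that differed between AE9a and MLL-AF9 in the interaction test of the joint edgeR fit. All values are log2 differences, AE9a minus MLL-AF9. The effect was higher in AE9a for Gm6166 (3.78), Ccl2 (3.36), Ccl7 (3.16), Ctse (2.64), Grem1 (2.55), Serpinb2 (2.34), Cxcl14 (2.28), Ptgs2 (1.95) and Csf1 (1.24). It was lower in AE9a for Gm42047 (-3.37), Angptl7 (-3.36), Fzd1 (-1.90), Gpr137b-ps (-1.89), Ero1lb (-1.76), Plpp3 (-1.67), Stac2 (-1.62) and Mfge8 (-1.41). These 17 differences passed the threshold under all 9 alternatives run. All but Csf1 were picked for small p-values in the same libraries, so passing there is no independent support. The differences for Id1 (-0.86) and Cxcl12 (-0.63) passed under 4 of the 9, with edgeR or DESeq2 adjusted p-values of 0.0036 to 0.209 for Id1 and 0.00124 to 0.157 for Cxcl12. The Id1 value uses the deposited 383 counts in AE9a Id1+/+ cells, and the count of 183 implied by the other column was not fitted. Gm6166 and Gpr137b-ps may share reads with near-identical genes.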

How the results depend on the processing

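The AE9a counts of 1507 genes at least 2-fold higher and 218 lower became 1502 and 235 with DESeq2 size factors, 1381 and 184 with a minimum of 50 counts, 1469 and 193 with a prior count of 2, and were unchanged with no minimum. Library totals gave 1810 and 117 and moved the median of all genes by 0.2 log2. A mean of at least 10 CPM gave 453 and 53, and requiring the whole interval past 2-fold gave 994 and 56. With the other deposited columns, which carry the added constants, the counts were 529 and 6478. Of the 15 lists with a median log2 ratio of at least 1, all kept it at 1.11 or more under the scaling, minimum and prior count alternatives. With the other columns 4 of these medians changed sign: osteoblast to -0.51, chondrocyte and tendon to -0.59, muscle, nerve and glia to -1.66 and Wnt to -0.56. Mpo changed sign there too, to -0.040. That follows from adding 134 to Id1+/+ and 17 to Id1-/- counts. Implying the Id1+/+ count of Id1, an alternative added after seeing the data, gave -1.13.

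Genes whose effect differed between models numbered 1550, 775 with DESeq2, 3027 with the replicate block and 873 to 1761 leaving out 1 MLL-AF9 library, the lowest without Id1-/- replicate 2. Genes called in MLL-AF9 numbered 3879, 2227 with DESeq2, 5221 with the replicate block and 2232 to 3816 leaving out 1 library. With library totals they numbered 3607, of which 3070 were higher and 537 lower. In MLL-AF9 the deviations of libraries with the same number correlated at 0.132 across genes. Over only 2 pairs, that value cannot show whether such libraries share more than a number. No paired analysis was possible for AE9a alone because each genotype has 1 usable library. The joint counts therefore depend on the tool and on single libraries.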
